A study of Rattus norvegicus with 6 samples.

Results

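Inflammasomes are protein platforms that assemble inside a cell when a sensor detects foreign or misplaced nucleic acid, membrane damage or bacterial products. In mouse and human cells the sensors AIM2 and NLRP3 recruit the adaptor ASC, the product of Pycard, which gathers and activates caspase-1. Active caspase-1 cuts the precursors of the cytokines IL-1β and IL-18 into their active forms and frees the pore-forming end of gasdermin D, and the pores release the cytokines and can kill the cell. The step from inactive to active is taken by the proteins, so the RNA levels given here say how much template for each component was present, not whether an inflammasome had formed. In brain these genes are known mainly from microglia and macrophages.

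The gene set held 10 listed genes of this system: the sensors Aim2 and Nlrp3, the adaptor Pycard, the proteases Casp1 and Casp4, the pore protein Gsdmd, the cytokines Il1b, Il18 and Il1a, and the IL-1 receptor antagonist Il1rn. A gene was taken from the probe sets that the platform annotation pairs with exactly 1 gene symbol, and 9 of the 10 were found, each with 1 probe set, among 14497 genes named in this way. Nlrp3 was not paired with such a probe set and was not analysed here. All 9 reached the 40th percentile of at least 1 array, the condition for entering the test, as did 10947 genes in all. They did so on different arrays. Pycard and Gsdmd passed on all 6 arrays, Casp1, Casp4 and Il18 on the 4 stroke arrays, and Il1b on the young 3 d and the aged 14 d array. Aim2 and Il1a passed on the aged 14 d array alone and Il1rn on the young 3 d array alone, so these genes entered the test because 1 array was high, and counts over the 9 are given as a description.

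The study compared tissue around a brain infarct with healthy brain in male Sprague-Dawley rats of 2 ages. The infarct was made by lifting the middle cerebral artery with a hook for a limited time. The stroke groups were aged rats 14 d and 3 d after stroke (19 to 20 months, RNA of 23 rats pooled at each time) and young rats 14 d and 3 d after stroke (3 to 4 months, 19 rats pooled). They were set against naive rats with no stroke, aged (18 to 20 months) or young (3 to 5 months), with 15 rats in each pool. Each of the 6 groups was 1 array of 1 pool, so the spread between animals was not measured, and no operated group without an infarct was analysed here. The naive tissue is labelled only as healthy brain, and its region relative to the tissue around the infarct is not stated.

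The deposited values were used as log2 levels, a base inferred from their range. Array medians lay between 7.09 and 7.15, the 40th percentiles between 6.49 and 6.62, and correlations between arrays between 0.962 and 0.995. Of the tissue markers, the 10 neuronal genes averaged between 10.53 and 11.26 on every array, well above the array medians, and 4 of the 10 were called lower than naive at 3 d and 8 at 14 d (Nefm by -0.94 and -1.53). Of 6 cortical markers, 2 were named on the array. Neurod6 was called lower than naive at 3 d (-0.67) and at 14 d (-0.57), and Fezf2 was not called (-0.21 and -0.33). All 5 tested striatal markers were called lower than naive at both times (Drd2 by -1.46 at 3 d), and the part of a difference in sampled region was not tested. Levels are given per gene across arrays and are not compared between genes, since probe sets differ in brightness.

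The stretches around the start sites of 5 of the genes are shown here because 4 of them (Aim2, Casp1, Il18 and Il1a) had an aged array at least 1.5-fold above the young one at 14 d, while the fifth, Il1b, changed little. They run from 250 bases before to 50 bases after the annotated start, 5′ to 3′ on the gene's strand, from RefSeq on the rat build GRCr8. Capitals mark matches to the motifs searched.
Aim2: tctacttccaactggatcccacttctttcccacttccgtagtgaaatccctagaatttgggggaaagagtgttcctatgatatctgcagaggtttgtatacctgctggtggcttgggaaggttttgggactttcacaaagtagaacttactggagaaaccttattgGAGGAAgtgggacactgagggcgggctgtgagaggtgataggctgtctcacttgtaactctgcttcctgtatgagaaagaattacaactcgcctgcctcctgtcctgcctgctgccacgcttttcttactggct
Casp1: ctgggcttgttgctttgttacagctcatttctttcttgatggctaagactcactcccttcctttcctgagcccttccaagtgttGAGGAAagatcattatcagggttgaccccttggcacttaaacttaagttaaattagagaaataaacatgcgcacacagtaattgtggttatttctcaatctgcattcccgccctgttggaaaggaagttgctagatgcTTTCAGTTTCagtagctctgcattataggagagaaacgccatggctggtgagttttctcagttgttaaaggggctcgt
Il18: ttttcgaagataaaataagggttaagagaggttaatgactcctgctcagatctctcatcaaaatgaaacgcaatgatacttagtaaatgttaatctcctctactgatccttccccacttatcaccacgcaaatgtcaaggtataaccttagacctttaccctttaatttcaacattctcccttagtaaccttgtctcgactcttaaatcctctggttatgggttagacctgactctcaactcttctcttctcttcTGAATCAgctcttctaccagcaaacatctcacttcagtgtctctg
Il1a: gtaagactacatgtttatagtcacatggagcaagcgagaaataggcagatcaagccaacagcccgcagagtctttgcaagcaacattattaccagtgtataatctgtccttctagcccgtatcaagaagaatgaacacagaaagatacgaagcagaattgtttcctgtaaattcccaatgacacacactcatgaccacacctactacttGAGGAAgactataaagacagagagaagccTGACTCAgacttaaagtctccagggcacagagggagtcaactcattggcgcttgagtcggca
Il1b: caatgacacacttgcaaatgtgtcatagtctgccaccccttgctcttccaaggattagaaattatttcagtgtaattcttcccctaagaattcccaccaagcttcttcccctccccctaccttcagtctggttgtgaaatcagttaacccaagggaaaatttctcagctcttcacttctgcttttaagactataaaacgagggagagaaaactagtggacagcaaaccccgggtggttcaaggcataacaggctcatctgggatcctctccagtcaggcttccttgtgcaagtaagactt

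The Aim2 stretch lies at chr13:88398372-88398671 (plus strand), Casp1 at chr8:10872580-10872879 (plus), Il18 at chr8:59801822-59802121 (plus), Il1a at chr3:136989968-136990267 (minus) and Il1b at chr3:137036532-137036831 (minus). The RefSeq table held such stretches for 8 of the 10 genes, and Casp4 and Gsdmd were not matched. Both strands were searched for 4 motifs, and no matches of different motifs overlapped in these genes. Positions count the annotated start as 1, with no position 0. An interferon response element, a pair of GAAA words with any 2 bases between them, was found in Casp1 alone of the 8. It stood as its reverse complement TTTCAGTTTC at position -28, and 3.92% of 33469 promoters of the same length held the element. The AP-1 motif TGANTCA, which reads the same on both strands, stood at position -12 in Il1a and 6 in Il18, against 7.33% of all promoters. The PU.1 core GAGGAA, the binding word of a myeloid transcription factor, was found in 4 of the 8 (Aim2 at -84, Nlrp3 at -73, Casp1 at -166 and Il1a at -41) and in 27.6% of all promoters. The NF-kB consensus matched 0 of the 8 and 4.18% of all promoters. These are matches of letters in 1 window and say nothing of binding. In the order of genes on the chromosome, Casp1, Casp4 and Casp12 follow one another, as do Il1a and Il1b.

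The sensor Aim2, which binds double-stranded DNA in the cytosol, was low on 5 of the 6 arrays. In aged rats its level was 4.96 in naive tissue, 5.93 at 3 d and 7.57 at 14 d. In young rats it was 5.31, 5.61 and 5.77 at the same stages. The aged 14 d array therefore stood alone, and the naive arrays of both ages lay below the lower quartile of their array.

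Pycard encodes ASC, the adaptor that links sensor and caspase through its pyrin and caspase recruitment domains. Its level in aged rats was 7.29 in naive tissue, 8.46 at 3 d and 8.79 at 14 d. The young arrays gave 6.95, 8.85 and 8.41. All 4 stroke arrays lay above both naive arrays, and the young 3 d array was the highest.

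Casp1, the protease that cuts the IL-1β and IL-18 precursors, was at 6.39 in naive tissue, 8.44 at 3 d and 9.04 at 14 d in aged rats. In young rats it was at 6.37, 8.56 and 8.06. The naive arrays differed by 0.02, and the highest level was on the aged 14 d array. Casp4, the rat counterpart of the mouse caspase that responds to cytosolic lipopolysaccharide, was at 5.95, 8.30 and 8.996 in aged rats. In young rats Casp4 was at 5.99, 7.79 and 7.78. Both aged stroke arrays lay above both young stroke arrays.

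Gsdmd, the substrate whose cut end forms the pore, moved least among the genes whose stroke and naive arrays did not overlap. In aged rats it was at 6.75 in naive tissue, 7.27 at 3 d and 7.59 at 14 d. The young arrays gave 6.83, 7.34 and 7.51, within 0.09 of the aged array at every stage.

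Il18, made as a precursor that caspase-1 activates, had the largest range of the 9. It was at 6.02 in naive tissue, 8.37 at 3 d and 9.01 at 14 d in aged rats. The corresponding levels in young rats were 5.89, 7.82 and 7.35. Both aged stroke arrays were above both young ones, and in young rats the 14 d array was below the 3 d array. Il1a, whose product is active without caspase-1 and acts as an alarm signal of damaged cells, was at 4.93, 5.82 and 6.84 in aged rats. In young rats Il1a was at 4.84, 5.94 and 5.57. As for Aim2, the aged 14 d array stood apart, here above a set of stroke arrays that were low on the array scale.

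Il1b, the cytokine most often used as a readout of inflammasome activity, spanned 0.60 over the 6 arrays. It was at 6.11 in naive tissue, 6.49 at 3 d and 6.60 at 14 d in aged rats. In young rats it was at 6.54, 6.71 and 6.42. The stroke and naive arrays overlapped, since the young naive array was above 2 stroke arrays. Il1rn, which blocks the IL-1 receptor without signalling, was at 5.75, 6.53 and 6.48 in aged rats. In young rats Il1rn was at 5.37, 6.75 and 6.13, with its highest level at 3 d.

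**Figure D1:**
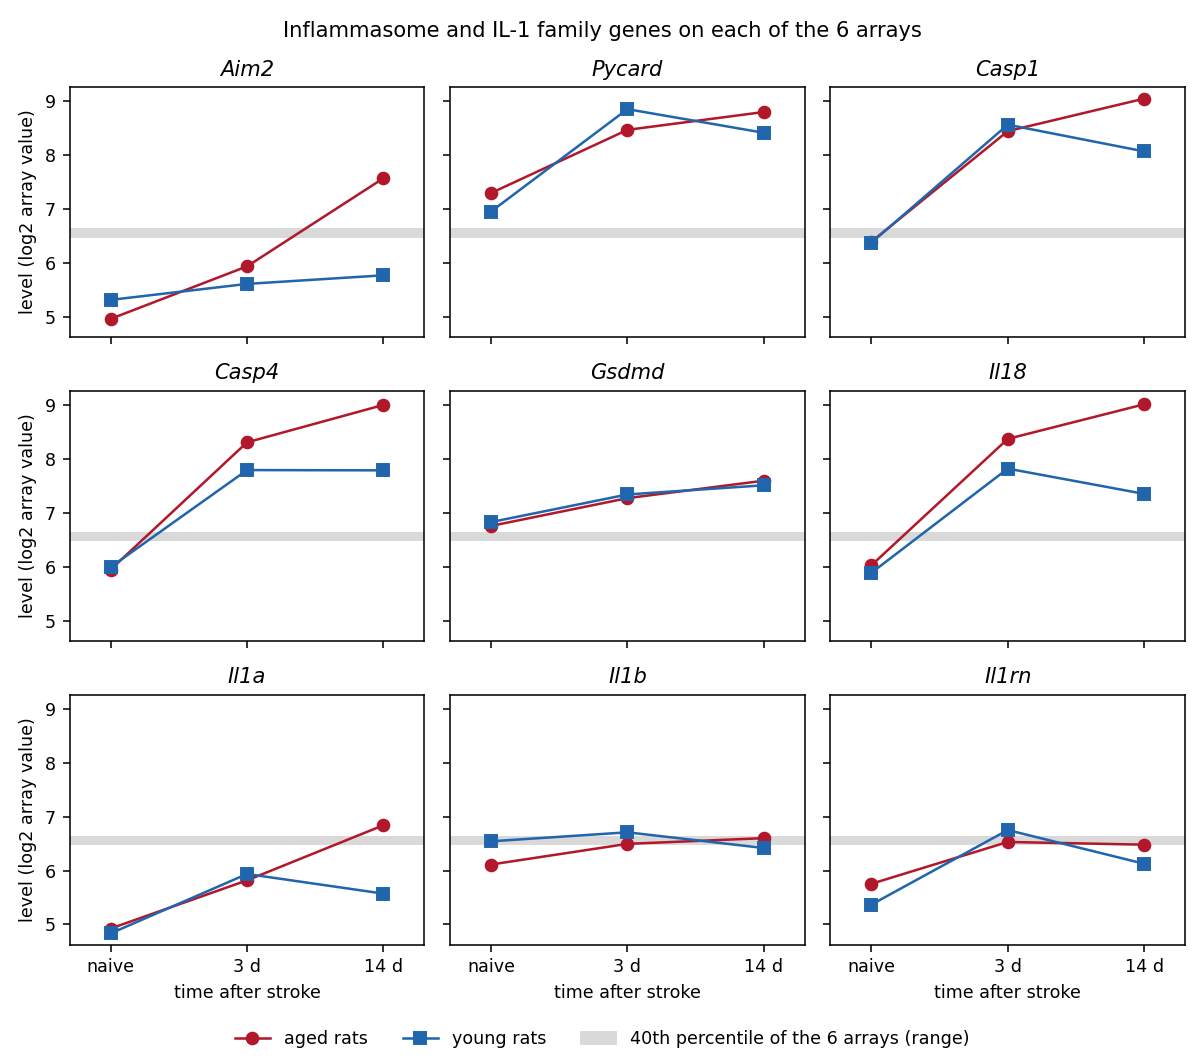
Level of each of the 9 genes (log2 array value, vertical axis) in naive tissue and 3 d and 14 d after stroke (horizontal axis), with 1 array per point, aged rats as circles and young rats as squares, and the range of the arrays' 40th percentiles shaded. Aim2, Casp1, Casp4, Il18 and Il1a are highest on the aged 14 d array, whereas Il1b stays between 6.11 and 6.71.

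The first comparison set tissue around the infarct at 3 d against naive tissue, over both ages. Casp1 was higher at 3 d by 2.12 ± 0.25 on the log2 scale (4.34-fold, adjusted p = 0.00109), and Casp4 by 2.08 ± 0.26 (4.22-fold, adjusted p = 0.00145). Il18 was 4.40-fold higher (adjusted p = 0.00289), and the adaptor Pycard was higher by 1.53 ± 0.20, a 2.90-fold difference. The antagonist Il1rn was higher by 1.08 ± 0.17 (2.11-fold, adjusted p = 0.00426), Il1a by 0.997 ± 0.30 (adjusted p = 0.0485) and Gsdmd by 0.51 ± 0.12 (1.43-fold, adjusted p = 0.0218). Aim2 differed by 0.63 ± 0.42 (adjusted p = 0.303, 95% interval -0.34 to 1.61) and Il1b by 0.28 ± 0.16 (adjusted p = 0.254, 95% interval -0.10 to 0.65), and neither passed. The intervals leave room for a change in either direction.

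In all, 7 of the 9 genes were called higher and 0 lower at 3 d, where 14.4% of all tested genes were called higher and 7.87% lower. With no filter on low values, which treats all 9 alike, 6 were called against 9.97% of 14497 genes, and Il1a no longer passed (adjusted p = 0.0542). The median change was 1.08 for the 9 genes and -0.03 for all genes tested. These errors are standard errors from a limma fit of age and condition over the 6 arrays, with 2 arrays per condition and p-values adjusted by Benjamini and Hochberg's method over all genes. The error behind the p-values is how far the arrays depart from additive age and condition effects, together with spread borrowed across genes. It holds any age difference of the response. Each group was 1 pool, so the spread between like pools was not measured. The design cannot tell a batch from a group. In whole tissue, more cells of a type and more RNA per cell cannot be told apart. Without the young naive array 4 of the 9 were called, namely Casp1, Casp4, Il18 and Pycard, when 7.9% of all genes were called higher. Without the aged naive array the value for Aim2 was -0.07, and without either 14 d array Aim2 was called at 3 d (0.63, adjusted p = 0.0079). Gsdmd lost its call at 3 d without any 1 of the naive or 3 d arrays (adjusted p 0.0862 to 0.196), Il1a without either naive or the young 3 d array (0.107 to 0.352) and Il1rn without the young naive array (0.0565).

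At 14 d against naive tissue, 8 of the 9 genes were called higher and 0 lower, where 13.6% of tested genes were called higher and 11.4% lower. Casp4 was higher by 2.42 ± 0.26 (5.36-fold, adjusted p = 0.00074), Il18 by 2.22 ± 0.31 (4.67-fold, adjusted p = 0.00239) and Casp1 by 2.17 ± 0.25 (4.51-fold, adjusted p = 0.00101). Pycard was higher by 1.48 ± 0.20 (2.79-fold), Gsdmd by 0.76 ± 0.12 (1.69-fold) and Il1rn by 0.74 ± 0.17 (1.67-fold, adjusted p = 0.0184). Aim2 was higher by 1.53 ± 0.42 (adjusted p = 0.0333) and Il1a by 1.33 ± 0.30 (adjusted p = 0.0166). Il1b differed by 0.18 ± 0.16 and did not pass (adjusted p = 0.455, 95% interval -0.20 to 0.56).

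The Aim2 call at 14 d rested on the aged arrays. Its value was 0.62 without the aged 14 d array (adjusted p = 0.0562) and 0.82 without the aged naive array (adjusted p = 0.313). Without the aged naive array 4 of the 9 genes were called, again Casp1, Casp4, Il18 and Pycard, when 5.76% of all genes were called higher. The value of Il1a ran from 0.69 to 1.97 when arrays were left out in turn, and it lost its call without the aged naive (adjusted p = 0.178) or the young naive array (0.0554). Il1rn lost its call without the young naive array (adjusted p = 0.155), and also without the aged 14 d array (adjusted p = 0.0534). With no filter on low values 8 of the 9 were called, against 9.4% of genes, and the median change at 14 d was 1.48 for the 9 genes and -0.05 for all tested genes. Counted without a test, 8 of the 9 genes had all 4 stroke arrays above both naive arrays, which 23.8% of tested genes did, and Il1b did not.

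**Figure D2:**
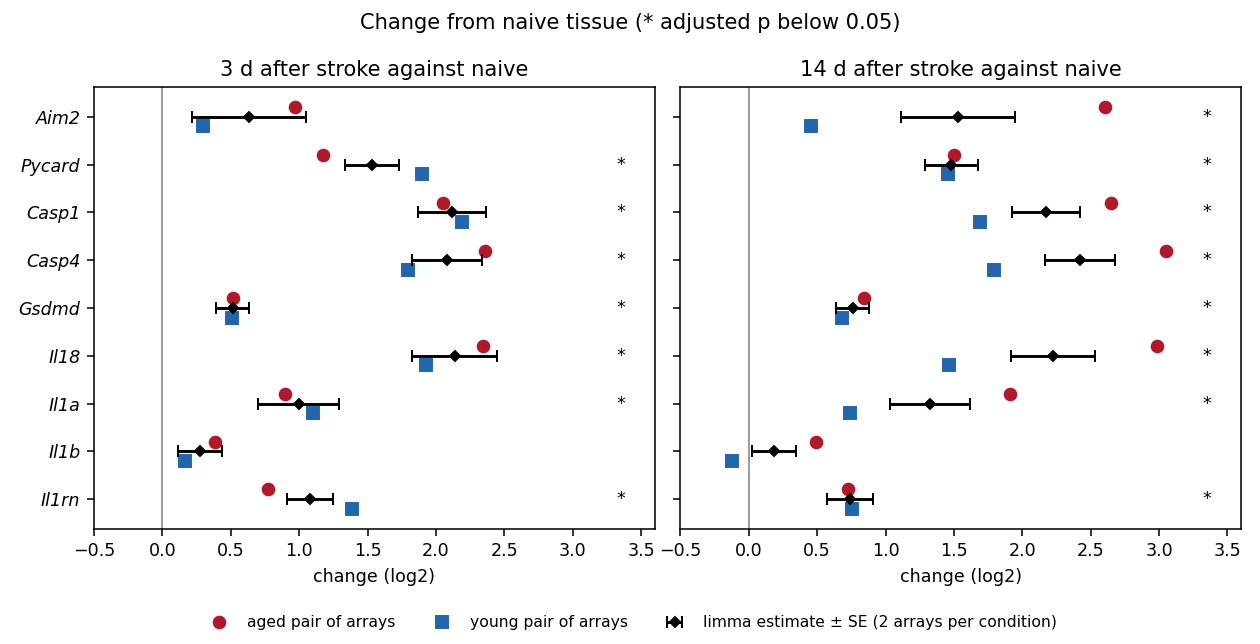
Change from naive tissue (log2) at 3 d and at 14 d for each gene, as the difference within the aged pair of arrays (circles), within the young pair (squares) and as the limma estimate with its standard error over 2 arrays per condition, with an asterisk at an adjusted p below 0.05. At 14 d the aged and young pairs lie apart for Aim2 (2.61 and 0.45), Il18 (2.98 and 1.46), Casp4 (3.05 and 1.79) and Il1a (1.91 and 0.74), and together for Pycard (1.502 and 1.459) and Il1rn (0.73 and 0.76).

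Within each age the changes were differences of 2 arrays and were not tested. At 3 d, 7 of the 9 genes were at least 1.5-fold above naive tissue in aged rats (11.5% of tested genes were) and 6 in young rats (13.3%). Casp1 differed from naive tissue by 2.05 in the aged and 2.19 in the young pair of arrays. Pycard (1.17 in aged, 1.90 in young) and Il1rn (0.78 in aged, 1.38 in young) differed more from naive tissue in young rats. At 14 d the counts were 8 in aged rats (14.1% of tested genes) and 7 in young rats (9.41%). Aim2 and Il1a entered the test through the aged 14 d array alone.

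Between 3 d and 14 d, 6 of the 9 genes went in opposite directions in aged and young rats, as did 45.5% of tested genes, and the difference was not tested. The count goes by sign alone, and in young rats Casp4 differed by only -0.01. Of the 9 genes, 5 were at least 1.5-fold higher at 14 d than at 3 d in aged rats (4.17% of tested genes were). Aim2 was higher by 1.63, Il1a by 1.02, Casp4 by 0.69, Il18 by 0.64 and Casp1 by 0.60. Of these 5, Aim2 and Il1a entered the test through the aged 14 d array alone. In young rats none was 1.5-fold higher (2.66% of tested genes were) and Il1rn was lower by 0.63 (4.31% were lower to that extent). Pooled over both ages, the limma comparison of 14 d with 3 d called 0 of the 9 genes (1.34% of tested genes were higher and 1.82% lower). An unadjusted p under 0.05 was reached by 0 of the 9 and by 1281 of the 10947 tested genes. Changes in opposite directions count as error in that fit. Without the young 14 d array, 4 of the 9 were called higher at 14 d than at 3 d: Aim2 by 1.80, Il1a by 0.97, Casp4 by 0.83 and Il18 by 0.74. By that fit 3.36% of all tested genes were called higher and 1.87% lower. Its 14 d arm is the aged array alone, which is assumed to vary like the other groups and is the array through which Aim2 and Il1a entered the test.

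The age comparison asked how the tissue of aged rats differed from that of young rats. In naive tissue 0 of the 9 genes differed by 1.5-fold (0.612% of tested genes were higher and 0.119% lower in aged rats), and the differences ran from -0.43 for Il1b to 0.39 for Il1rn. Il1b and Aim2 (-0.35) lay below the 5th percentile of all tested genes (-0.26), and Il1rn and Pycard (0.34) above the 95th (0.26). At 3 d again 0 of the 9 differed by 1.5-fold (0.457% higher and 1.1% lower), and those nearest to it were Il18 (0.55) and Casp4 (0.51), both higher in aged rats. These differences were nonetheless past the 99th percentile of all tested genes at 3 d (0.493), at ranks 70 and 94. At 14 d, 5 of the 9 were at least 1.5-fold higher in aged rats, as were 5.76% of tested genes, and 0 were lower (1.82%). Of these 5, Aim2 and Il1a entered the test through the aged 14 d array alone, so the count is a description. All 9 differences were above 0 at 14 d, with a median of 0.98 against 0.02 for all tested genes.

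Aim2 was 3.48-fold higher on the aged than on the young 14 d array, the seventh largest excess among the 10947 genes. Il18 was 3.16-fold higher and stood at rank 11, Il1a was 2.41-fold higher (rank 33) and Casp4 2.32-fold (rank 43). Casp1 was 1.97-fold higher (rank 132). Pycard (0.39), Il1rn (0.35), Il1b (0.18) and Gsdmd (0.09) lay between the 5th and 95th percentiles of all genes, -0.46 and 0.62. Of tested genes, 86.5% had a smaller difference than Pycard and 84.6% a smaller one than Il1rn. So the 5 genes with a large excess comprised the DNA sensor, both proteases and 2 of the 3 cytokines, and not the adaptor, the pore protein, Il1b or the antagonist. With 1 array on each side, none of these differences has a replicate check. The ranks of Aim2 and Il1a rest on the aged 14 d array, through which alone these genes entered the test.

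Over all 3 conditions together, the additive limma fit called 0 of the 9 genes between aged and young rats. It called 0% of all genes in either direction, while 852 genes, Il18 and Casp4 among them, had an unadjusted p under 0.05. The difference was 0.78 ± 0.25 for Il18 and 0.56 ± 0.21 for Casp4, with an adjusted p = 0.631 for both. An added limma fit tested whether the gap between the ages at 14 d differed from the mean gap in the other conditions, with the spread borrowed from the additive fit. The contrast was chosen after the gap was seen, and Aim2 and Il1a entered the test through the aged 14 d array alone. The gap at 14 d exceeded the other gaps by 1.81 ± 0.31 for Aim2 and 1.28 ± 0.23 for Il1a (adjusted p = 0.496 for both). For Il18 it did so by 1.31 ± 0.26 and for Casp1 by 1.03 ± 0.22 (adjusted p = 0.508 for both), and for Casp4 by 0.98 ± 0.29 (adjusted p = 0.512). With limma 0 of the 9 and 0% of all genes passed the threshold, also with no filter on low values (adjusted p = 0.544 for Aim2 and 0.558 for the other 4). On simulated arrays this fit missed most of the known changes, so a missed threshold does not show equal gaps. With a variance prior of its own, a version that made too many false calls on simulated arrays, the fit called Aim2, Il18 and Il1a and 0.375% of all genes with a wider gap. With no filter it called Aim2 (adjusted p = 0.0403) and 0.103% of genes, and neither Il1a (0.0637) nor Il18 (0.0733).

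**Figure D3:**
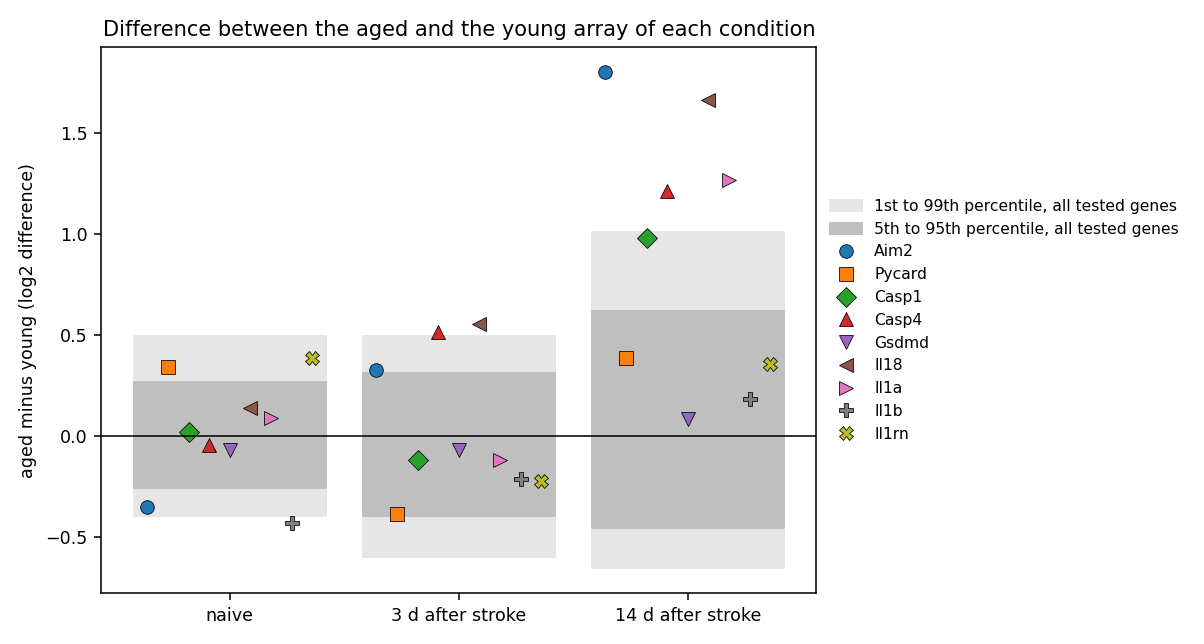
Difference between the aged and the young array (log2, vertical axis) in naive tissue and at 3 d and 14 d after stroke, 1 symbol per gene, over bands that hold the 1st to 99th and the 5th to 95th percentile of all 10947 tested genes. At 14 d Aim2, Il18, Il1a and Casp4 lie above the upper band, whose edge is at 1.01, and Casp1 lies just under it at 0.98.

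Markers of microglia, monocytes and macrophages were read on the same arrays, and the cells that carried the inflammasome genes were not identified. Of 10 microglial markers, 10 were called higher than naive at both 3 d and 14 d, and of 11 monocyte and macrophage markers 10 were called higher at each time, all but Ms4a7. The mean level of the microglial markers was 8.54 in naive tissue, 10.12 at 3 d and 10.40 at 14 d in aged rats. The young arrays gave 8.30, 10.01 and 10.01. For the monocyte and macrophage markers it was 6.42, 8.07 and 8.52 in aged rats and 6.23, 8.28 and 7.75 in young rats. At 3 d the aged array exceeded the young one for 9 of 10 microglial markers (median 0.09). It did so for 3 of 11 monocyte and macrophage markers (median -0.10). At 14 d the aged array exceeded the young one for 9 of 10 microglial markers (median 0.43, 1 of them by 1.5-fold) and for 11 of 11 monocyte and macrophage markers (median 0.74, 6 of them by 1.5-fold). Among the monocyte and macrophage markers Plac8 was higher in aged rats by 1.69, Cd68, a lysosomal protein of phagocytes, by 1.26 and Cd163 by 0.07. The excess of Aim2 (1.80) lay above that of every marker of both lists, and those of Il18 (1.66) and Il1a (1.27) above all but Plac8. That of Casp4 (1.21) lay below Plac8 and Cd68, and that of Casp1 (0.98) also below Cd14 (1.07) and F10 (1.01). Pycard (0.39), Il1rn (0.35), Il1b (0.18) and Gsdmd (0.09) lay below the medians of both lists. Aim2 and Il1a entered the test through the aged 14 d array alone, and probe sets differ in brightness. Of 10 neutrophil markers 7 stayed below the 40th percentile on all arrays, including S100a8, S100a9 and Mpo, and so did the T cell genes Cd3e, Cd3d, Cd3g and Cd2. Of the neutrophil markers above it, Mmp8 was higher in aged rats at 14 d by 1.35 and Csf3r by 0.94, while the third, Elane, differed by -0.57, and the median over the 10 was -0.16. Of 9 T and NK cell markers, 5 were tested and the median difference over the 9 at 14 d was 0.03, with Nkg7 higher in aged rats by 1.23 and Cd8a by 0.59. Cd8a was also called higher than naive at 3 d (1.42 ± 0.35, adjusted p = 0.0247). The 5 striatal markers were lower in aged than in young rats in naive tissue (median -0.48) and at 14 d (median -0.73, 3 of them by 1.5-fold), and 4 of the 5 at 3 d (median -0.17). The 2 cortical markers were lower in aged rats in naive tissue (median -0.27), at 3 d (-0.39) and at 14 d (-0.45). The part of these cell and region markers in the age difference of the inflammasome genes was not tested.

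Other parts of the pathway were read from lists of related genes. Of 24 other inflammasome sensors and regulators, 15 were named on the array and 13 tested, and 8 were called higher at 3 d and 10 at 14 d, with 0 lower. Gbp2 and Gbp5, interferon-induced GTPases that promote inflammasome assembly in mouse cells, were higher by 1.88 ± 0.15 and 1.44 ± 0.19 at 3 d and by 2.49 ± 0.15 and 2.31 ± 0.19 at 14 d. Naip6, a sensor of bacterial flagellin in mouse, was higher by 1.42 at 3 d and 1.75 at 14 d, and P2rx4, an ATP-gated channel, by 1.15 and 1.299. Of 8 cytosolic nucleic acid sensors and adaptors named on the array, 7 were tested and 6 were called higher at each time. Between the times 3 of the 7, Tlr9, Dhx58 and Ifih1, were called higher at 14 d than at 3 d (by 0.89, 0.81 and 0.66). Zbp1, a sensor of nucleic acid in the Z form, was higher than naive by 1.06 ± 0.27 at 3 d and 2.12 ± 0.27 at 14 d, the RNA sensor Ifih1 by 1.25 ± 0.13 and 1.91 ± 0.13, the endosomal DNA receptor Tlr9 by 1.01 ± 0.18 and 1.90 ± 0.18, and Dhx58 by 0.86 ± 0.14 and 1.67 ± 0.14.

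Among 5 other caspases 3 were called higher at both times. Casp8, which starts death receptor signalling, was higher by 1.43 ± 0.24 at 3 d and 1.67 ± 0.24 at 14 d, and Casp2 by 0.47 and 0.47. Casp12, the neighbour of Casp4, was higher by 0.90 ± 0.23 at 3 d and 1.64 ± 0.23 at 14 d. Its level was 5.07 in naive tissue, 5.83 at 3 d and 7.10 at 14 d in aged rats and 4.92, 5.96 and 6.16 in young rats, so its aged 14 d array also stood apart. Of 6 tested genes of lytic cell death 4 were called higher at both times. Ripk3, the kinase of necroptosis, was higher by 1.78 ± 0.27 at 3 d and 1.297 ± 0.27 at 14 d, and its partner Ripk1 by 0.95 and 1.01. Serpinb1a, a protease inhibitor, was higher by 1.86 and 1.68, and Ninj1, which ruptures the membrane of dying cells, by 0.83 and 0.93. Gsdme, another gasdermin, was not called (0.08 ± 0.12 at 3 d and 0.07 ± 0.12 at 14 d).

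On the receiving side, 3 of 6 tested receptors and binding proteins of the IL-1 family were called higher and 1 lower at each time. Il1rl1, the receptor of IL-33, was higher by 1.86 ± 0.25 at 3 d and 2.28 ± 0.25 at 14 d. Il1r1, the signalling receptor of IL-1, was higher by 1.39 ± 0.16 and 1.35 ± 0.16. Il18bp, which binds and neutralises IL-18, was higher by 0.58 ± 0.14 at 3 d and 0.94 ± 0.14 at 14 d. Il1rapl1, a synaptic relative of these receptors, fell by 0.56 at 3 d and fell by 0.62 at 14 d. Of the other ligands of the family named on the array, only Il33 was tested, and it was called at 3 d (0.47 ± 0.14, adjusted p = 0.0481) and not at 14 d (0.29). Of 18 genes of IL-1 receptor signalling 8 were called higher at 3 d and 9 at 14 d, with 0 lower. The adaptor Myd88 was higher by 1.15 ± 0.16 at 3 d and 1.11 ± 0.16 at 14 d, the kinase Irak4 by 1.20 and 1.06, and the inhibitor Nfkbia by 1.01 and 0.96.

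Genes that IL-1 is known to induce did not follow a single course. Of 11 tested, 5 were called higher at each time, and between the times 1 was higher and 3 were lower at 14 d than at 3 d. The chemokine Ccl2 and the iron carrier Lcn2 were higher than naive by 4.52 ± 0.19 and 3.80 ± 0.21 at 3 d, and by 2.86 ± 0.19 and 1.27 ± 0.21 at 14 d. At 14 d against 3 d Lcn2 fell by 2.54, Ccl2 fell by 1.66 and the metalloproteinase Mmp9 fell by 1.33 on the log2 scale, while Vcam1 was higher by 1.05. The adhesion molecules Vcam1 and Icam1 were among the leading genes at 14 d, higher than naive by 1.06 ± 0.15 and 0.96 ± 0.13. The cytokine Il6 and the chemokine Cxcl2 did not reach the 40th percentile on any array. At 14 d the aged minus young differences of this list had a median of -0.02 over all 19 genes named on the array, 8 of which were below the 40th percentile on every array, and of 0.16 over the 11 tested. Over all named genes the median was 0.98 for the 9 inflammasome and cytokine genes, against 0.56 for the nucleic acid sensors and 0.26 for IL-1 receptor signalling.

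**Figure D4:**
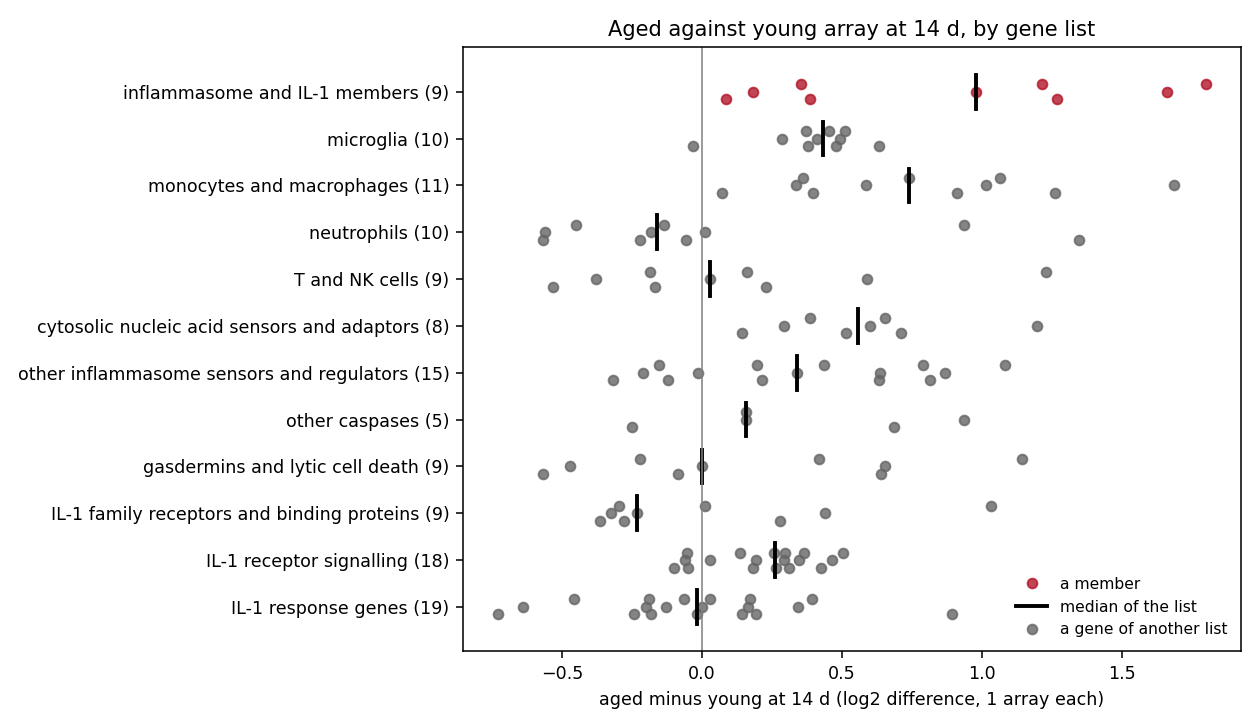
Difference between the aged and the young array at 14 d (log2, horizontal axis) for each gene named on the array, tested or not, by list, with the number of genes in parentheses and a bar at each list's median. The inflammasome and cytokine genes have a median of 0.98, the monocyte and macrophage markers 0.74, the nucleic acid sensors 0.56 and the IL-1 response genes -0.02.

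The genes varied together to different degrees over the 6 arrays. These correlations describe 6 points that share 3 conditions and 2 ages. Pearson's r was 0.98 between Casp1 and Casp4, 0.98 between Casp1 and Pycard and 0.99 between Casp4 and Il18. Aim2 was closest to Il1a (0.92) and less close to Casp1 (0.77), and Il1b had an r between 0.49 and 0.63 with every other gene of the set. Among 1529 tested genes that spanned at least 1 over the arrays, those most like Casp1 were Vav1, a signalling protein of blood cells (0.9995), Bcl2a1, a survival factor (0.998), Pttg1ip (0.998), the kinase Syk (0.997) and the phosphatase Acp5 (0.997). Those most like Aim2 were Tmem150b (0.997), Lilra5, a myeloid receptor (0.993), Tmem268 (0.992), Dennd2d (0.988) and Clybl, a mitochondrial enzyme (0.988). None of these 1529 genes was as close to Il1b, the nearest being Ctla2a (0.882) and the myeloid inhibitory receptor Cd200r1 (0.871), followed by Zyx (0.839), Atad2 (0.815) and Hhex (0.811). Il1b itself spanned only 0.60, and genes with so small a span were not searched.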

How the data were processed

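RNA pools of 6 groups were hybridised to Affymetrix whole-transcript arrays of the rat. Per the labels, total RNA was extracted with TRIzol, cleared of DNA, amplified, and labelled with biotin. The values deposited by the authors, 1 for each array and probe set, were taken as log2. The submitters' processing notes name R 2.14.0 and affy, while normalization is not given in the sources used here. Of 28826 probe sets, 15209 had 1 symbol. Those at or above the 40th percentile of at least 1 array were kept (11513), and the highest mean stood for a gene.

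Age and condition were additive terms in limma (version 3.58.1, R 4.3.3), with 2 residual degrees of freedom (prior 5.56) and Benjamini-Hochberg adjustment at 0.05. The function was tested on simulated arrays. The added age gap fit, chosen after seeing the data, used the prior of that fit. Single pairs of arrays were not tested.

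The members and all lists were chosen with earlier results of these data known. The text names all members, up to 4 called genes with the largest change per list at 3 d and 14 d, 2 between the times, and the 5 genes most like Aim2, Casp1 and Il1b. Other genes (Gsdme, Il6, Cxcl2, those completing counts of 5 or fewer, and single markers) were chosen after their values were seen. The number of arrays limits the precision. Alternatives were other scalings, filters and probe set choices, age left out and leaving out each array.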

Additional observations from a re-analysis of the deposited data

Results flagged for a closer look

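The gap between aged and young arrays at 14 d exceeded the mean gap in the other conditions by 1.81 for Aim2, 1.31 for Il18 and 1.28 for Il1a on the log2 scale. These were picked out because an added limma fit with its own variance prior gave an adjusted p = 0.0149, 0.0347 and 0.0285, when 0.375% of tested genes had a wider gap by that rule. On simulated arrays this version made more false calls than its threshold allows. With the prior of the additive fit, which missed most known changes there, the adjusted p was 0.496, 0.508 and 0.496. The contrast was chosen after the gap was seen, and Aim2 and Il1a entered the test through the aged 14 d array alone. With no filter on low values the own prior gave 0.0403, 0.0733 and 0.0637, when 0.103% of genes had a wider gap.

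Of the 9 genes, 6 went one way in aged and the other way in young rats between 3 d and 14 d, a difference that was not tested. The 14 d minus 3 d differences were 1.02 in aged and -0.36 in young rats for Il1a, 0.69 and -0.01 for Casp4, and 0.64 and -0.47 for Il18. For Casp1 they were 0.60 in aged and -0.49 in young rats, for Pycard 0.33 and -0.44, and for Il1b 0.11 and -0.29. Of all tested genes 45.5% went in opposite directions in this way, and 29.5% were higher at 14 d in aged and lower in young rats. The 14 d minus naive difference of Il1b was 0.49 in aged and -0.12 in young rats, also not tested. Only 1 of the 9 genes went in opposite directions there, while 26.5% of tested genes did. Of all tested genes 14.3% were higher than naive in aged and lower in young rats.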

How the results depend on the processing

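Casp1, Casp4, Il18 and Pycard were called higher than naive at 3 d and at 14 d under every alternative run. The other calls depended on single arrays or settings. With a filter at the 60th percentile 4 genes were tested and 4 called at each time. By that filter 17.3% of tested genes were called higher at 3 d and 16.5% at 14 d. All 4 passed it on stroke arrays alone, so their count is a description. Leaving out each array in turn gave 4 to 8 called genes at 3 d, 4 to 8 at 14 d, 0 to 4 between 14 d and 3 d, and 0 to 0 between the ages. At 3 d Il1a lost its call with medians centred (adjusted p = 0.0529), with no filter (0.0542) and with age left out (0.0865). At 14 d Aim2 lost its call with age left out (0.0638). With quantile normalization 1 of the 9 genes passed 1.5-fold between the ages at 3 d, against 0 as deposited. Under the added fit's own prior the gap at 14 d was called for Aim2, Il18 and Il1a, and with no filter for Aim2 alone.

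Signs turned only when an array was left out. The ranges were then -0.073 to 1.34 for Aim2 at 3 d and -0.070 to 0.43 for Il1b at 14 d. Between 14 d and 3 d they were -0.011 to 1.80 for Aim2, -0.43 to 0.32 for Pycard, -0.46 to 0.57 for Casp1, -0.15 to 0.83 for Casp4, -0.35 to 0.16 for Il1b, -0.57 to 0.74 for Il18 and -0.31 to 0.97 for Il1a. Between the ages they were -0.014 to 1.06 for Aim2, -0.021 to 0.36 for Pycard, -0.051 to 0.50 for Casp1, -0.070 to 0.0091 for Gsdmd and -0.014 to 0.68 for Il1a. Fits without an array have 1 residual degree of freedom. Each group was 1 array of 1 pool, so there were no replicates to pair. The age term sets arrays of 1 age against each other.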
